A study of Mus musculus with 6 samples.

Results

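A group of 10 genes of mouse chromosome 14 was examined in kidneys of mice lacking LIGHT and of wild type mice after ischemia and reperfusion. They are the Tmem254 family (Tmem254a, Tmem254b and Tmem254c), the Plac9 family (Plac9a, Plac9b and Gm9780), the Entpd4 family (Entpd4 and Gm21685), and the further genes Gm16867 and 1700112E06Rik. Together they are 10 of the 13026 genes in the deposited table. The members were chosen by their FPKM in these same libraries, each being lower in the knockout, so their difference between the genotypes is given below as a description, without a test. The 3 LIGHT knockout samples came from LIGHT-/- mice and the 3 wild type samples from LIGHT+/+ mice, and every animal was an adult male of the C57BL/6 J background. Every mouse had both kidneys clamped for 32 min and then reperfused for 24 h, and RNA of whole kidney was sequenced. Kidneys without surgery were not analysed here, and neither was Tnfsf14, the gene that encodes LIGHT, so no check of the labels on the deleted gene was made. The labels do not give the deleted part of the gene or say for each sample that it is a separate mouse, and p-values therefore reflect only how these samples vary, which may be technical variation.

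LIGHT belongs to the tumour necrosis factor cytokines. It binds the lymphotoxin beta receptor and the herpesvirus entry mediator and signals to NF-kB. Families of near-identical genes arise when a stretch of a chromosome is duplicated. A short read from one copy then matches the other copies equally well, and a value for a single copy depends on how the counting program divides such reads. Tmem254 genes encode a small membrane protein with several transmembrane segments. Plac9 genes encode a small secreted protein first found in placenta. Entpd4 encodes a nucleoside diphosphatase of the Golgi and lysosomes that hydrolyses nucleoside diphosphates such as UDP, which is left when sugars are transferred to proteins. Gm21685 is named Entpd4b in the GENCODE M21 annotation, where it carries the same gene identifier. In the same way 1700112E06Rik is Lrmda, whose human counterpart is needed for the differentiation of pigment cells. Gm16867 is a predicted model, and no role is given for it here.

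All 10 genes lie on chromosome 14 of the mm10 assembly, at 3 places. 1700112E06Rik (ENSMUSG00000063458.12) spans 22019712 to 23056085 on the plus strand. The Plac9 and Tmem254 genes follow after a gap of 2831 kb, all on the minus strand, in the order Plac9a (25887506 to 25903100), Tmem254a (25923300 to 25927672), Gm9780 (26027282 to 26042711), Tmem254c (26063919 to 26067355), Plac9b (26167405 to 26182480) and Tmem254b (26203369 to 26207041). The arrangement is a repeat of 1 Plac9 gene and 1 Tmem254 gene, with 20.2, 21.2 and 20.9 kb between the members of each pair. Successive Tmem254 copies lie 139.683 and 139.686 kb apart and successive Plac9 copies 139.611 and 139.769 kb apart, measured between the ends of the annotated genes. The interval of 319.5 kb holds 14 annotated genes in full, of which these 6 are in the table. The others include Duxbl1, Duxbl2, Cphx1 and Cphx2, homeobox genes, and were not analysed here.

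Another 43130 kb along the chromosome, Entpd4 (69337174 to 69367270) and Gm21685 (69555424 to 69585520) lie on the plus strand, 218.25 kb from end to end, and each spans 30097 bases. Gm16867 (69363504 to 69503362, minus strand) lies between them and overlaps the end of Entpd4 by 3767 bases on the opposite strand. The end of Gm21685 is overlapped in the same way, by 3357 bases, by the antisense gene Gm27177, which was not analysed here. The library kit marks the strand, but no source used here says whether counting made use of it, so reads in these overlaps may not have been told apart. Cphx3 also overlaps Plac9b and Tmem254b on the opposite strand. Entpd4 and Gm21685 each contain an antisense gene, Gm27221 and Gm27176, of 3363 bases. 1700112E06Rik and Gm16867 overlap further annotated genes, among them antisense genes and pseudogenes. Apart from Entpd4 and Gm16867 themselves, none of the genes that overlap a member was analysed here.

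The copies of a family were compared through their 31-base words, all stretches of 31 bases in their annotated transcripts. Entpd4 and Gm21685 each hold 8149 such words, and 100% of the words of each occur in the other. All 5 annotated transcripts of Gm21685 are identical to a transcript of Entpd4. Tmem254b and Tmem254c also have no word of their own, while Tmem254a has 700 words found in no other copy, 27.1% of its 2587, in a longer annotated transcript of 2147 bases. Plac9a, Plac9b and Gm9780 have 6, 44 and 8 words found in no other copy, which is 0.343, 3.45 and 0.583% of their words. In none of the 8 copies did such words form an internal stretch of a transcript, so the annotated copies differ in where their transcripts start and end and not by a base within a shared stretch. Of the words of Gm16867, 88.0% occur in Gm27177 and 5.7% in Slc25a37, its neighbour. None of the words of 1700112E06Rik occurs in another gene, so it is a single-copy gene by this measure and does not belong to a family of copies.

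The sequences upstream of the genes were compared within the Tmem254 and Plac9 families. RefSeq (GRCm38.p6, the same assembly as mm10) gives windows of 300 bases, from 250 before to 50 after a start site, for 9 of the 10 genes. Entpd4 has no window, so its upstream sequence was not compared with that of Gm21685. Each Tmem254 gene has 2 windows, of which the first is printed for Tmem254a and Tmem254b. The 4 windows printed for the Tmem254 and Plac9 families show where the copies coincide. That of Gm21685 is printed for this gene alone. Capitals mark GC boxes (GGGCGG on either strand). Each is on the minus strand except that of Gm21685.
Tmem254a, chr14:25927623-25927922: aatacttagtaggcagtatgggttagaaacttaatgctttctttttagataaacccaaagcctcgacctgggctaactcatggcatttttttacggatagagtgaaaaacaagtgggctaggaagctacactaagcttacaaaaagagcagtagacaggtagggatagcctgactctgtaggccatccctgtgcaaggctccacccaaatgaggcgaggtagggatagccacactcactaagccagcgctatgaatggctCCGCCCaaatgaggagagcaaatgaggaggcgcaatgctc
Tmem254b, chr14:26206976-26207275: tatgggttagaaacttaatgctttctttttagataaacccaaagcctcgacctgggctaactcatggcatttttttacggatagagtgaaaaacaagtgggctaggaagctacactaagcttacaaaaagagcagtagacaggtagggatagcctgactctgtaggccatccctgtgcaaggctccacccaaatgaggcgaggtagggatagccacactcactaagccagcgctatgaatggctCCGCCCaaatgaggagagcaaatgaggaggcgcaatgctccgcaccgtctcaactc
Plac9a, chr14:25902844-25903143: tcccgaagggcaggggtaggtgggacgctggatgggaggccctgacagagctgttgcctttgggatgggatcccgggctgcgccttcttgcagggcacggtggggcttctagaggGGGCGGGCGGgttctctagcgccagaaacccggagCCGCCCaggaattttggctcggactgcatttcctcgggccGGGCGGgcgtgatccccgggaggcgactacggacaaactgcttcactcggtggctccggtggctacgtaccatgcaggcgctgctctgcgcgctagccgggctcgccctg
Plac9b, chr14:26182302-26182601: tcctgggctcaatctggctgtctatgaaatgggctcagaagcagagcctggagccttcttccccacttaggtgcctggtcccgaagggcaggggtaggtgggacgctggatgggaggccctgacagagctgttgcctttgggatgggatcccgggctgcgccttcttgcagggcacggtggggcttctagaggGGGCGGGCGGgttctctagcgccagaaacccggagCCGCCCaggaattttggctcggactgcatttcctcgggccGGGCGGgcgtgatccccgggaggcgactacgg
Gm21685, chr14:69555151-69555450: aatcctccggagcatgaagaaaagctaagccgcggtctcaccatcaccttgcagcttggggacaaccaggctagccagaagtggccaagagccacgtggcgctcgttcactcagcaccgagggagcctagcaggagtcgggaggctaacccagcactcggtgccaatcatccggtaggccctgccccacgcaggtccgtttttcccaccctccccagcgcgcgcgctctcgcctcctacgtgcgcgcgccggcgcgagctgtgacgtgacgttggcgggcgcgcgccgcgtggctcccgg

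The first window of Tmem254c is identical to that of Tmem254a over all 300 bases, and that of Tmem254b is shifted by 16 bases and identical over the other 284. Against the second window of Tmem254a, that of Tmem254c is shifted by 11 bases and that of Tmem254b by 89. They are identical to it over the 289 and 211 bases that remain. The window of Gm9780 is identical to that of Plac9b over all 300 bases, and that of Plac9a is shifted by 78 bases and identical over the 222 that remain. Between the families, the longest run shared at 1 offset by the windows of Tmem254a and Plac9b was 8 bases. The first Tmem254 windows hold 1 GC box each and the Plac9 windows 4, some of which overlap each other, while the window of Gm21685 holds none. The second windows of Tmem254a and Tmem254c hold 1 GC box each and that of Tmem254b holds 0. A GC box occurs in 35.7% of 32851 promoter windows of the mouse. CCAAT on either strand, found in 37.4% of all windows, occurs once in the window of Gm21685, once in 1 of the 2 windows of Gm16867 and once in that of 1700112E06Rik. TATAAA, searched the same way and found in 13.6% of all windows, occurs in none of the 13 windows of the members. The NF-kB motif, found in 4.51% of all windows, occurs in that of 1700112E06Rik and in no other window of the members.

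The values are FPKM, a level scaled for transcript length and library size, and the deposited table keeps genes whose higher group mean is at least 0.50043 FPKM. Library 3 of the knockout stood apart, with a correlation of log2(FPKM + 1) across genes of 0.935 to 0.957 with the other libraries, against at least 0.976 among the other 5, and values without it are given where they bear on a result. The sum of FPKM per library ranged from 299667 to 318493, and the read depth is unknown. All 12 kidney markers checked were present in every library, among them Kap, an androgen-driven protein of proximal tubules, and Umod, of the thick ascending limb. Their sum was 5001 to 7080 FPKM in knockout and 5273 to 5618 FPKM in wild type libraries. Kap alone was at 3717 to 4207 FPKM, most of each sum, so the sums say little about the other markers.

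The Tmem254 genes were the most abundant members. Summed over the 3 copies, the level was 31.2, 27.7 and 34.99 FPKM in knockout libraries 1 to 3, against 163, 113 and 137 FPKM in wild type libraries 1 to 3. Each knockout library was far below each wild type library, and the spread within wild type was wider in FPKM than that within knockout. The mean was 31.3 ± 3.65 FPKM in knockout and 138 ± 24.6 FPKM in wild type (SD, n = 3 each), so that the knockout held 22.7% of the wild type level, or 21.4% without knockout library 3. On the log2(FPKM + 1) scale, which is used for all log2 differences here, the sum differed by -2.09 (knockout minus wild type). The wild type mean would rank 290 among the 13026 genes of the table and the knockout mean 1752.

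Each Tmem254 copy showed the same picture, but the copies are not separate observations. Tmem254b and Tmem254c have no word of their own, so the single values depend on how the counting program divided shared reads. Tmem254a had 9.50, 8.41 and 10.4 FPKM in knockout libraries, against 48.6, 34.1 and 41.0 FPKM in wild type libraries. Tmem254b had 9.98, 8.83 and 11.1 FPKM in knockout libraries, against 53.4, 37.1 and 44.8 FPKM in wild type libraries. Tmem254c had 11.7, 10.5 and 13.5 FPKM in knockout libraries, against 60.5, 42.2 and 50.8 FPKM in wild type libraries. In every library Tmem254c was the highest, Tmem254b next and Tmem254a the lowest, although the group means lay within 1 SD of the neighbour in that order in wild type. In wild type, library 1 was the highest and library 2 the lowest for all 3 copies, and in the knockout library 3 was the highest and library 2 the lowest. Log2 differences were -2.01, -2.06 and -2.01 for Tmem254a, Tmem254b and Tmem254c.

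The Plac9 genes were far less abundant, and the knockout held a similar share of the wild type level. Their sum was 2.96, 3.07 and 3.07 FPKM in knockout libraries, against 13.7, 10.4 and 17.0 FPKM in wild type libraries. The knockout libraries lay close together and the wild type libraries were spread 1.63-fold between the lowest and the highest. The mean was 3.03 ± 0.0619 FPKM in knockout and 13.7 ± 3.29 FPKM in wild type (SD, n = 3 each), so that the knockout held 22.1% of the wild type level, or 22.0% without knockout library 3, and the sum differed by -1.84 on the log2 scale. Plac9a had 0.926, 0.894 and 0.997 FPKM in knockout libraries, against 4.24, 3.52 and 6.15 FPKM in wild type libraries. Plac9b had 1.05, 1.13 and 1.11 FPKM in knockout libraries, against 4.71, 3.46 and 5.59 FPKM in wild type libraries. Gm9780 had 0.987, 1.05 and 0.961 FPKM in knockout libraries, against 4.79, 3.43 and 5.24 FPKM in wild type libraries. None of the 3 copies was highest in every library, and their wild type means of 4.64 ± 1.36, 4.59 ± 1.07 and 4.49 ± 0.945 FPKM for Plac9a, Plac9b and Gm9780 differed by less than their SD. At these levels the log2 differences of -1.51, -1.40 and -1.44 understate the ratio of the means, since 1 is added to each value.

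Among the wild type libraries, the Plac9 sum was lowest in library 2 and highest in library 3, and so was the sum of 8 fibroblast markers (Col1a1, Col1a2, Col3a1, Dcn, Lum, Pdgfra, Pdgfrb and Postn). Each of these markers was highest in wild type library 3. Only Col1a1, Col3a1, Dcn and Pdgfrb were lowest in wild type library 2, while Col1a2, Lum, Pdgfra and Postn were lowest in wild type library 1. The fibroblast sum was 90.3 to 123 FPKM in knockout libraries and 90.2 to 146 FPKM in wild type libraries, so it overlapped between the genotypes. The 5 leukocyte markers in the table summed to 54.0 to 74.4 FPKM in knockout and 65.0 to 151 FPKM in wild type libraries, also highest in wild type library 3 and overlapping between the genotypes. The 5 adipocyte markers in the table summed to 12.8 to 67.0 FPKM in knockout, with the top value in library 3, and 13.8 to 21.3 FPKM in wild type libraries, and Adipoq was at 0 in every wild type library. Of the 4 adrenal markers Star alone was in the table, at 1.63 FPKM or less. The part of any of these cell types in the values of the members was not tested. In whole tissue fewer cells of a type and less RNA per cell cannot be told apart.

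**Figure D1:**
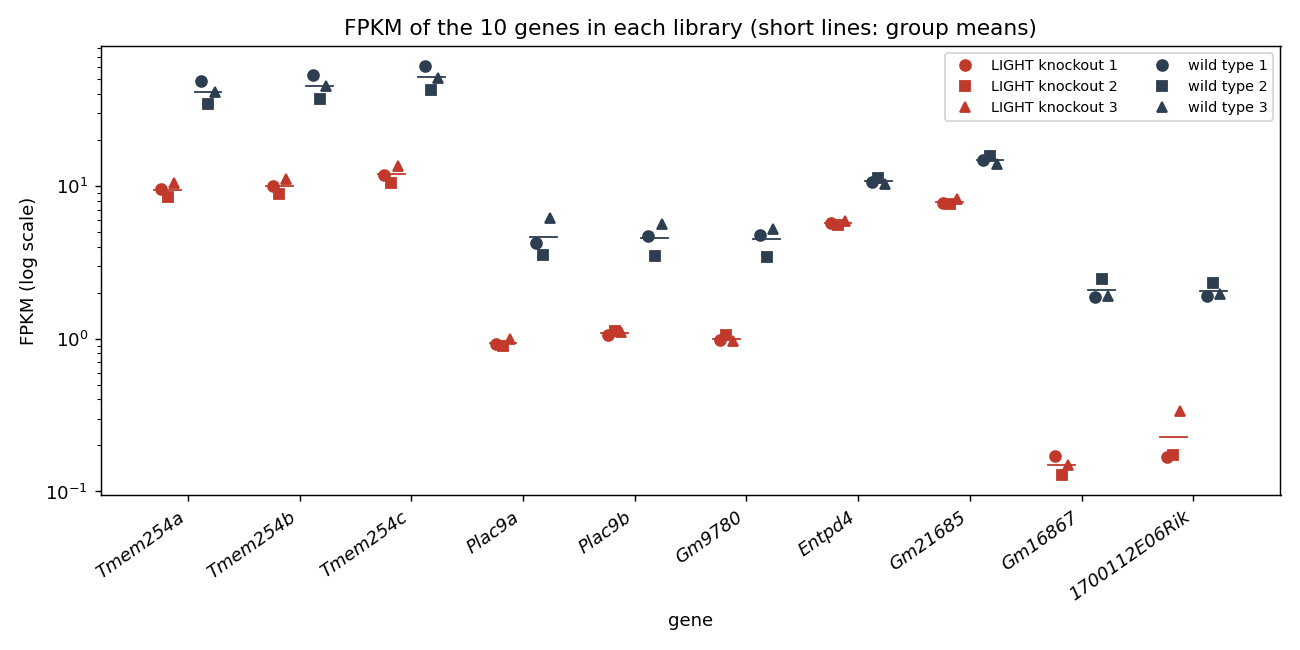
FPKM on a log axis of the 10 genes in each library, with LIGHT knockout libraries to the left of wild type libraries and short lines at group means. In each gene the 3 knockout points lie below the 3 wild type points, and the groups lie closest in Gm21685 (7.60 to 8.24 FPKM in knockout, 13.8 to 15.6 FPKM in wild type) and Entpd4.

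The Entpd4 genes had a smaller difference between the genotypes, and their sum varied less among wild type libraries than those of the other families. The sum of Entpd4 and Gm21685 was 13.4, 13.1 and 14.1 FPKM in knockout libraries, against 25.5, 26.8 and 24.1 FPKM in wild type libraries. The highest value was 1.07 times the lowest in knockout and 1.11 times the lowest in wild type. The mean was 13.5 ± 0.496 FPKM in knockout and 25.5 ± 1.37 FPKM in wild type (SD, n = 3 each), so that the knockout held 53.2% of the wild type level, or 52.1% without knockout library 3. Entpd4 had 5.71, 5.53 and 5.85 FPKM in knockout libraries, against 10.6, 11.2 and 10.3 FPKM in wild type libraries. Gm21685 had 7.70, 7.60 and 8.24 FPKM in knockout libraries, against 14.8, 15.6 and 13.8 FPKM in wild type libraries. The log2 differences were -0.81 for Entpd4, -0.83 for Gm21685 and -0.86 for their sum. Gm21685 was the higher of the pair in every library, by more than the SD of either, although every word of its transcripts is also in Entpd4.

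**Figure D2:**
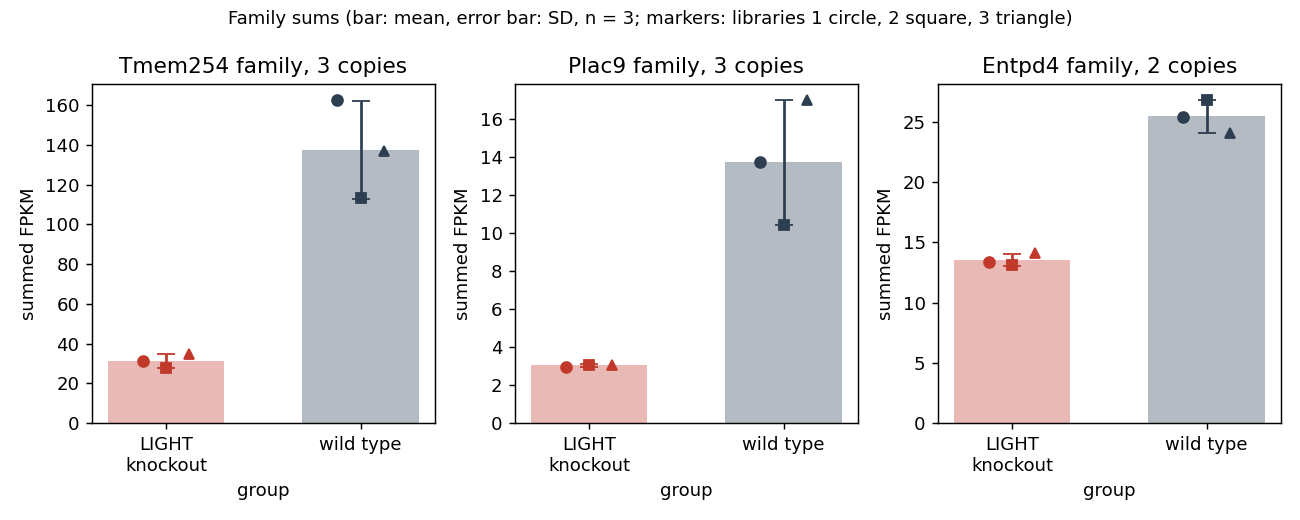
Summed FPKM of the copies of each family by group, with bars at the mean, error bars of 1 SD (n = 3) and a marker for each library, LIGHT knockout left of wild type. The knockout mean was 22.7% of wild type for Tmem254, 22.1% for Plac9 and 53.2% for Entpd4.

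The other two genes had the lowest levels of all members, below the lower limit of the table in the knockout. Gm16867 had 0.171, 0.128 and 0.149 FPKM in knockout libraries, against 1.87, 2.47 and 1.90 FPKM in wild type libraries. 1700112E06Rik had 0.167, 0.173 and 0.337 FPKM in knockout libraries, against 1.90, 2.32 and 1.95 FPKM in wild type libraries, and the highest knockout value was that of library 3. Their means in the knockout were 7.18 and 11.0% of those in wild type, and the log2 differences were -1.42 and -1.32. These differences depend on the 1 added to each value, and were -3.12 and -2.76 with 0.1 added, or -2.35 and -2.13 with FPKM rescaled to TPM. Both genes were under 0.5 FPKM in every knockout library, so they are in the table through their wild type values, and a gene of this kind had to differ. Wild type library 2 was the highest for both genes and for the Entpd4 pair, but the lowest for the Tmem254 and Plac9 genes.

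All 10 members passed the filter for testing, a mean of at least 0.5 FPKM over the 6 libraries. In all 10 every knockout library was below every wild type library, which held for 8.80% of the 12836 genes tested, and since the members were picked for being lower, nothing follows from that count. By mean level the order in wild type was Tmem254c, Tmem254b, Tmem254a, Gm21685, Entpd4, Plac9a, Plac9b, Gm9780, Gm16867 and 1700112E06Rik. In the knockout the order was the same except that Plac9b and Gm9780 came before Plac9a and 1700112E06Rik before Gm16867. The knockout means were 1.10 ± 0.0408 FPKM for Plac9b, 0.999 ± 0.0453 FPKM for Gm9780 and 0.939 ± 0.0531 FPKM for Plac9a. In wild type, the Plac9 genes differed from each other by less than their SD, and so did Gm16867 and 1700112E06Rik.

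Within a family each copy held a nearly constant share of the sum. Since most or all words are shared within a family, these shares depend on how the counting program divided reads. Their constancy is therefore no separate result about each copy. Tmem254a held 29.7 to 30.5% of the Tmem254 sum over the 6 libraries, Tmem254b 31.6 to 32.9% and Tmem254c 37.2 to 38.6%. Entpd4 held 41.5 to 42.7% of the Entpd4 sum and Gm21685 the rest, with means of 42.1 ± 0.514% in knockout and 42.1 ± 0.513% in wild type for Entpd4 (SD, n = 3 each). The ratio of Gm21685 to Entpd4 was 1.35 to 1.41 in knockout and 1.34 to 1.39 in wild type libraries. The Plac9 copies, which are the lowest in level, varied more, with 29.1 to 36.2% for Plac9a, 32.9 to 36.8% for Plac9b and 30.9 to 34.9% for Gm9780. For 3 of the 8 copies the shares were close but did not overlap between the genotypes. Shares within a family depend on each other and no such count over other genes was made, so nothing follows from it. Tmem254b made up 31.8 ± 0.188% in knockout and 32.8 ± 0.0929% in wild type, Tmem254c 38.0 ± 0.580% in knockout and 37.2 ± 0.0379% in wild type, and Plac9b 36.1 ± 0.652% in knockout and 33.5 ± 0.700% in wild type. The sums of the different families did not keep 1 ratio. The Tmem254 sum was 9.01 to 11.4 times the Plac9 sum in knockout and 8.04 to 11.8 times in wild type libraries.

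**Figure D3:**
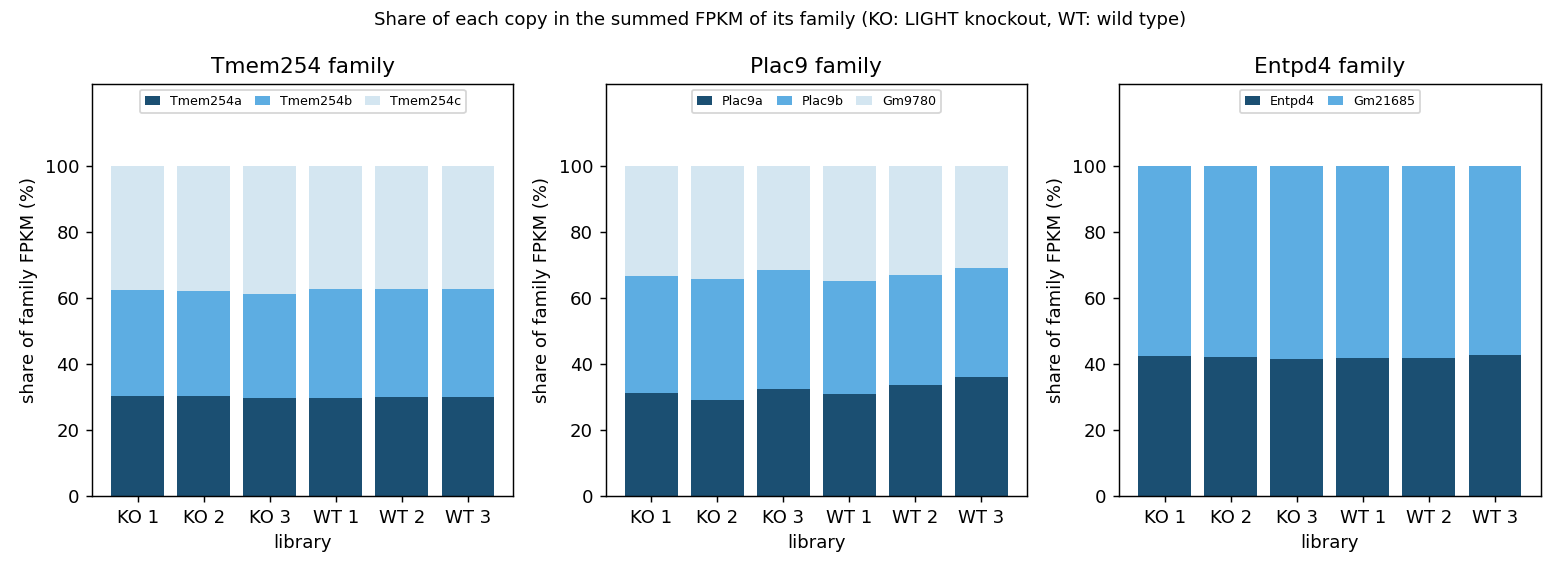
Share of each copy in the summed FPKM of its family, in percent, for knockout libraries 1 to 3 and then wild type libraries 1 to 3. The shares hardly move for the Tmem254 and Entpd4 copies (37.2 to 38.6% for Tmem254c) and vary most for Plac9a, from 29.1 to 36.2%.

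The genes beside the members took no part in the choice of members and could be tested. Among 39 tested genes within 1 Mb of a member, limma called 0 in either direction at an adjusted p under 0.05. An unadjusted p under 0.05 was found for 2 of them (5.13%), against 8.08% of all genes tested. Of the 39, 26 were lower and 13 higher in the knockout, against 6682 lower and 6154 higher over all genes tested. Over the whole table limma called 15 of 12836 genes, 0.117%, with 3 higher (0.0234%) and 12 lower (0.0935%) in the knockout, and this count fell to 0 without knockout library 2, wild type library 1 or wild type library 3. The 12836 genes include the 10 members, picked for being lower, so these shares are not a background free of that choice. The median log2 difference of the 39 genes was -0.07, against -0.01 over all genes tested. Of 434 other genes of chromosome 14, limma also called 0, with 32 (7.37%) at an unadjusted p under 0.05, and their median was -0.01.

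The nearest tested genes on each side of the members that are not predicted models lay 0.702 to 1078 kb away. Anxa11, an annexin that ends 0.702 kb before Plac9a, had 16.4, 18.02 and 21.0 FPKM in knockout libraries, against 17.5, 19.2 and 18.2 FPKM in wild type libraries, a log2 difference of 0.01 ± 0.11 (SE, limma adjusted p = 0.987). Slmap, which encodes a membrane protein of the sarcolemma and begins 206.1 kb after Tmem254b, had 13.1, 16.4 and 17.1 FPKM in knockout libraries, against 12.6, 15.8 and 15.2 FPKM in wild type libraries, a log2 difference of 0.09 ± 0.14 (SE, limma adjusted p = 0.843). In both the groups overlap. Slc25a37, a mitochondrial iron importer 52.1 kb before Entpd4, averaged 9.36 ± 1.57 FPKM in knockout and 9.45 ± 0.973 FPKM in wild type (SD, n = 3 each). Loxl2, a lysyl oxidase 23.5 kb after Gm21685, averaged 9.10 ± 2.40 FPKM in knockout and 12.4 ± 2.88 FPKM in wild type and did not pass (limma adjusted p = 0.614), and 46.2% of its words also occur in another gene. Its knockout values were 10.4, 10.5 and 6.33 FPKM, against 10.8, 10.6 and 15.7 FPKM in wild type, and the lowest and highest values were those of knockout library 3 and wild type library 3. Beside 1700112E06Rik, the zinc finger gene Zfp503, 30.1 kb before it, averaged 26.1 ± 2.58 FPKM in knockout and 25.0 ± 1.93 FPKM in wild type. Dlg5, a scaffold protein gene 1078 kb after it, averaged 7.12 ± 0.416 FPKM in knockout and 7.21 ± 0.833 FPKM in wild type.

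**Figure D4:**
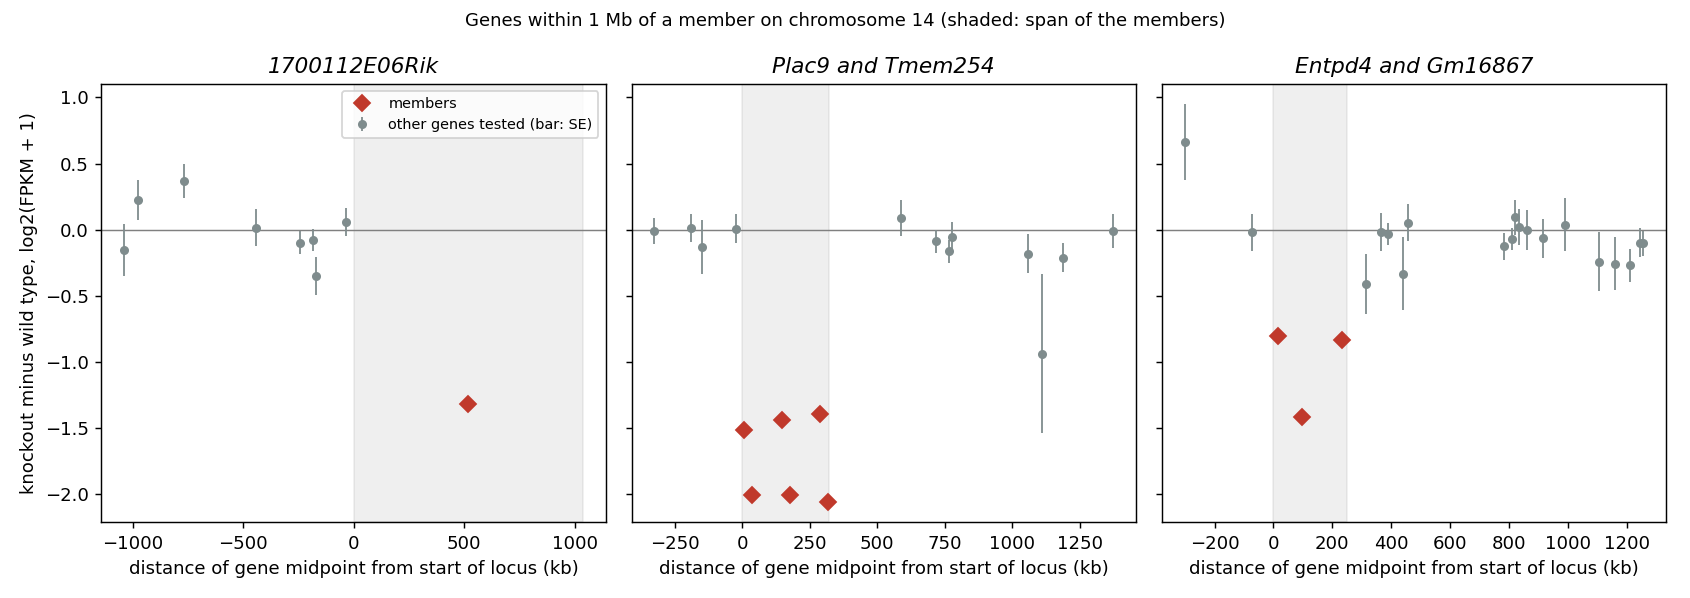
Log2 difference (knockout minus wild type, log2(FPKM + 1)) of members and of other tested genes within 1 Mb, against the distance in kb of the gene's midpoint from the start of the locus, which is shaded. Members are drawn without error bars, other genes with 1 SE, and none of the 39 other genes passed the test.

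Genes with near-identical copies elsewhere in the genome were counted in the same fit. Of 464 other tested genes that share at least 50% of their words with another gene, limma called 1, or 0.216%. An unadjusted p under 0.05 was found for 55 of them (11.9%), against 8.08% of all genes tested. The gene called was Gm21887 on chromosome X, a predicted model with 62.0% of its words shared. It had 3.95, 2.64 and 2.79 FPKM in knockout libraries, against 14.5, 17.2 and 17.2 FPKM in wild type libraries, a log2 difference of -2.08 ± 0.15 (SE, limma adjusted p = 0.0110). The groups lie far apart, and the call was lost without knockout library 2 or without any 1 of the wild type libraries.

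Gm21887 was also the gene whose profile over the 6 libraries lay nearest to those of the Tmem254 and Plac9 sums. Likeness was measured as the root mean square distance between centred log2(FPKM + 1) profiles, over 11808 other genes averaging 1 FPKM or more, and a search of this kind finds genes that share the split between the genotypes. From the Tmem254 sum the distance was 0.27 for Gm21887, 0.40 for Gm11127 and 0.42 for Apobec2, and 0.22 for the Plac9 sum. From the Plac9 sum it was 0.29 for Gm21887, 0.31 for Nkiras2 and 0.42 for Cdipt. From the Entpd4 sum it was 0.13 for Gm16505, 0.16 for Baiap2l2 and 0.16 for Gtf2h4, against 0.64 for the Tmem254 sum and 0.54 for the Plac9 sum. Since the members were chosen for that split, their nearness to each other is a description only.

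Genes related to Entpd4 by family or pathway were read from a list of 28 nucleotide-hydrolysing enzymes, nucleotide salvage enzymes and sugar nucleotide transporters. Of these 27 were tested. The list is broad, and some of its enzymes act at the cell surface and not where Entpd4 does. Limma called 0 of 27, against 0.117% over all genes, members included. An unadjusted p under 0.05 was found for 8, or 29.6%, where 8.08% of all genes had one. Over all 27 the list was split, with 13 genes higher and 14 lower and a median log2 difference of -0.03. Of the 8 with an unadjusted p under 0.05, only Slc35a2 was lower in the knockout. Adk, also among the 8, is 1 of the 2 neighbouring genes with such a p. In 3 genes every knockout library was below every wild type library (8.80% of all genes tested), while 6 had every knockout library above (7.76% of all genes tested). Slc35a2, which carries UDP-galactose into the Golgi, had 1.43, 1.34 and 1.33 FPKM in knockout libraries, against 2.41, 2.06 and 3.19 FPKM in wild type libraries, a log2 difference of -0.57 ± 0.14 (SE, limma adjusted p = 0.592). Entpd2, a cell-surface enzyme that hydrolyses ATP, averaged 6.46 ± 0.324 FPKM in knockout and 4.83 ± 0.484 FPKM in wild type (SD, n = 3 each). Enpp3, a cell-surface nucleotide pyrophosphatase, averaged 19.6 ± 2.32 FPKM in knockout and 14.3 ± 1.57 FPKM in wild type, and neither passed (limma adjusted p = 0.592 for each). Entpd5 and Cant1, which hydrolyse the same kind of diphosphate as Entpd4 in the endoplasmic reticulum and Golgi, averaged 82.5 ± 3.26 and 10.4 ± 1.22 FPKM in knockout, against 92.3 ± 24.6 and 11.99 ± 0.4998 FPKM in wild type.

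Nnt, which encodes a mitochondrial enzyme that makes NADPH, is known to carry a deletion in C57BL/6J mice that the C57BL/6N substrain does not have. It had 20.7, 13.7 and 19.3 FPKM in knockout libraries, against 8.35, 8.95 and 7.50 FPKM in wild type libraries, so every knockout library was above every wild type library. The log2 difference of 1.01 ± 0.16 (SE) did not pass over all genes (limma adjusted p = 0.242, and 0.0877 to 0.845 over the alternatives run), and 47.8% of its words also occur in another annotated gene. Whether the substrain of the mice has a part in the values of the members was not tested.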

How the data were processed

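RNA of whole kidney was measured in 6 libraries, grouped from their titles. The authors deposited FPKM per gene, and the submitters' processing notes name FastQC, HISAT2, StringTie and mm10 without versions. Their annotation is not named in the sources used here. The value of each library's own file was identical to the table of all libraries for all 13026 genes. Genes averaging 0.5 FPKM or more were kept (12836), put on the scale log2(FPKM + 1) and fitted in limma 3.58.1 (R 4.3.3) with a trend of variance on mean, and two-sided p-values were adjusted by Benjamini-Hochberg over all genes kept, threshold 0.05. The fit was also run on simulated data with independent normal noise, in which no library stood apart, and no result here rests on that run. Members were part of this fit and of its counts over all genes, but their own test results are not given. Their copies were summed per family within each library. GENCODE M21 gave positions for 13005 genes and the transcripts for the 31-base words. FPKM hold no counts, so no counting error is given. Members and lists were chosen with earlier results of these data known. Named genes are all members, genes flanking each locus, called neighbours, the 3 profiles nearest to each family, all called other copies, the 3 list genes of smallest p, genes that overlap a member, and Nnt. Genes of the marker lists, Entpd5, Cant1 and the homeobox genes of the Plac9 and Tmem254 interval fall outside it. Those given with values were picked with their values known. Alternatives were other pseudocounts, filters, scalings and variance models, a replicate block, each library left out, and other limits for neighbours and copies.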

Additional observations from a re-analysis of the deposited data

How the results depend on the processing

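The direction of every member and family sum was the same under all alternatives run, which adds no support. With every knockout library below every wild type library in all 10 members, a left-out library or another pseudocount could not reverse it. The Tmem254 sum lay between -2.22 and -1.96 on the log2 scale with each library left out in turn, the Plac9 sum between -2.01 and -1.69 and the Entpd4 sum between -0.90 and -0.83. With a pseudocount of 0.1 the Plac9 sum was -2.11, which is further from its main value than the spread within groups. Gm16867 was -3.12 and 1700112E06Rik -2.76 with that pseudocount, by its construction, since both are low. The count of 0 genes called among neighbours, other genes of chromosome 14 and the list around Entpd4 held under every alternative run, and Nnt passed under none. With at most 16 genes called over the whole table, and 0 under some alternatives, these counts of 0 had little room to change. The whole-table count of 15 was 12 to 16 under the other pseudocounts, filters, scalings and variance models and 0 to 11 with a library left out. The count of 1 among other near-identical genes was 0 to 1 with a library left out. It was 0 with a limit of 90% of words, which Gm21887 does not reach. Samples of the same replicate number did not deviate together, with correlations of their deviations from the group means of 0.15, -0.13 and -0.02, and 2 of 6 libraries correlated best with their own number. With the replicate number as a block the whole-table count and the count among other near-identical genes were both 0, while the sums were -1.996, -1.90 and -0.88 as medians of the numbered pairs. The read depth is unknown, so the counting error of low values such as those of Gm16867 and 1700112E06Rik in the knockout cannot be given.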
